A study of Homo sapiens with 40 samples.

Results

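The comparison described here sets RKO cells transfected with a non-targeting small interfering RNA (siControl) against cells given the solvent DMSO, both in the line that carries guide RNAs against IGF2BP2. This line is called sgIGF2BP2. The comparison holds 8 of the 40 libraries of the study, chosen by their labels alone, 4 for each treatment. Another RKO line, with guide RNAs against IGF2BP3 (sgIGF2BP3) and 8 libraries of the same treatments, is set beside it further below. RKO is an established human colorectal carcinoma line. The cells carry Cas9 under a doxycycline-inducible promoter, GFP, and a vector that expresses both guides together with a blue fluorescent protein, and fluorescent cells were sorted as a population. No doxycycline is named for either group. The label for the siControl group reads "no treatment", and the protocol gives the non-targeting siRNA at 75 nM for 48 hours with the lipid reagent DharmaFECT 2. All cells received the nucleoside s4U (4-thiouridine) at 250 µM for 2 hours, poly(A) RNA was sequenced, and each library came from a well of a 24-well plate in a quadruplicate experiment. The siRNA, the lipid reagent, the solvent and the handling of the wells differ together between the groups, so their contributions cannot be told apart.

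Lipid reagents carry siRNA into cells by endocytosis, through endosomes and lysosomes. In the cytoplasm an siRNA is loaded onto an Argonaute protein, the same machinery that uses microRNAs, which DICER1 cuts from hairpin precursors. A non-targeting siRNA is designed to match no transcript closely and serves as the reference for targeting siRNAs, so its own effect on the cells is carried by every comparison made against it. The lysosome and the cholesterol pathway are each governed by sensors: TFEB-family factors act on lysosomal genes, and SREBP factors act on genes of sterol synthesis and uptake.

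Total counts were 11865470 to 24822807 in the DMSO libraries, with replicate 3 the deepest, and 13357938 to 19558224 in the siControl libraries. Levels are given as CPM (counts relative to the library total, after scaling of library sizes), and changes as log2 fold changes of siControl over DMSO with their standard error (SE). Of 8 epithelial and colorectal markers, KRT8, KRT18, EPCAM and CDX2 were expressed, while KRT19, CDH1, VIL1 and CDH17 had at most 3 counts in any of the 8 libraries. The keratin genes KRT8 (-0.29) and KRT18 (-0.23) were called lower with siControl, and the summed level of the 8 markers was 278 to 292 CPM with DMSO and 244.7 to 248.8 CPM with siControl; the part of this in the results below was not tested. None of 14 fibroblast, leukocyte and endothelial markers passed the expression filter, and the summed level of each of these classes stayed below 1 CPM in every library. Nothing in the labels says that the 4 libraries of a group came from separate cultures other than separate wells. The p-values therefore measure a spread between wells, estimated over all 10 groups of the 40 libraries.

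IGF2BP2, the gene the guides are directed at, was measured first. It encodes an RNA-binding protein known to stabilise and transport mRNAs (chromosome 3, 185643739 to 185825056, minus strand, GRCh38). The guides of this line, shown because they define it, read as follows in the labels.
IGF2BP2 guide 1: atatgtgacgttgacaacgg
IGF2BP2 guide 2: gtgcgctgaggttcaaccct
IGF2BP2 stood at 83.8, 84.0, 86.5 and 86.7 CPM in the DMSO libraries and at 103, 109, 113 and 109 CPM in the siControl libraries. The groups did not overlap, and the rise was 0.34 (SE 0.043, adjusted p = 4.48e-09). IGF2BP3, its paralog, stood at 179 ± 9.22 CPM (SD, n = 4) with DMSO and 175 ± 7.0 CPM with siControl, a difference of -0.04 (SE 0.040, adjusted p = 0.604) that did not pass. IGF2BP1 had no count in the libraries compared here.

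Many genes moved by small amounts. Of 11428 genes tested, 2101 were called at an adjusted p-value under 0.05 (18.4%), 1168 of them higher (10.2%) and 933 lower (8.16%) with siControl. With upper-quartile scaling in place of the trimmed mean of M-values, the split of calls was 976 higher and 1266 lower. Among the calls, 1660 genes (14.5% of those tested) had no overlap between the 4 libraries of each group. The median log2 fold change was 0.23 among the genes called higher and -0.17 among those called lower. At least a doubling or halving on the log2 scale was reached by 15 called genes, 14 higher and 1 lower. When each gene was tested against a change of 1.2-fold, 77 genes were called higher (0.674%) and 8 lower (0.07%), and the calls past that size were therefore mostly rises.

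The 12 largest rises, taken from called genes without overlap whose average log2 CPM was 2 or more, held secreted and matrix proteins, DICER1 and a cyclin. DICER1 (chromosome 14, 95086228 to 95158010, minus strand), the enzyme that makes microRNAs and small interfering RNAs, stood at 37.7, 37.9, 36.4 and 36.5 CPM with DMSO and at 73.5, 72.7, 70.1 and 65.0 CPM with siControl. Every siControl library was above every DMSO library by a wide margin, and the rise was 0.93 (SE 0.056, adjusted p = 1.05e-21). CCND2, cyclin D2 of the G1 phase (chromosome 12, 4273772 to 4305350), went from 139, 136, 141 and 141 CPM to 229, 225, 216 and 221 CPM, a rise of 0.68 (SE 0.034, adjusted p = 1.26e-25). LAMA1, the laminin alpha 1 chain of basement membranes (chromosome 18, 6941744 to 7117814, minus strand), went from 81.5, 95.1, 86.5 and 90.8 CPM to 156, 153, 139 and 145 CPM, a rise of 0.75 (SE 0.042, adjusted p = 5.40e-23). In both genes the spread within a group was small beside the gap between the groups.

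Several of the other large rises came from genes of low level. CCN3, a matricellular protein, rose by 1.00 (SE 0.140) from 2.85 ± 0.519 to 5.70 ± 0.777 CPM (SD, n = 4), and GDF15, a stress-induced secreted factor, by 0.93 (SE 0.131) from 4.04 ± 0.524 to 7.61 ± 0.929 CPM. ITGAX, the integrin alpha X chain, rose by 0.82 (SE 0.070) to 29.6 ± 1.5 CPM and GEM, a small GTPase, by 0.72 (SE 0.067) to 38.2 ± 1.03 CPM. The remaining members of this group were TMSB4X (0.82), which encodes an actin-sequestering peptide, the orphan receptor gene GPR157 (0.81), the membrane-repair gene MYOF (0.70), the glucose transporter gene SLC2A3 (0.70) and TSC22D3 (0.65), known as a glucocorticoid-induced gene. ITPR3, an inositol trisphosphate receptor gene of the endoplasmic reticulum, was picked after its values were seen because it combines a high level with a large change. It rose by 0.58 (SE 0.036) from 454 ± 19.9 to 678 ± 14 CPM.

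The largest of the 12 falls chosen by the same rule was that of CCN2. CCN2, a connective tissue growth factor of the same family as CCN3 (chromosome 6, 131948176 to 131951373, minus strand), stood at 35.8, 30.8, 30.4 and 32.8 CPM with DMSO and at 14.1, 15.9, 18.3 and 17.0 CPM with siControl. All 4 siControl values were far below the lowest DMSO value, and the change was -0.99 (SE 0.069, adjusted p = 1.05e-18). CCN1, its close relative, fell by 0.55 (SE 0.040) from 114 ± 4.99 to 78.0 ± 2.33 CPM. TIMP1, an inhibitor of matrix metalloproteinases and an abundant transcript here, stood at 1183, 1218, 1198 and 1217 CPM and then at 839, 837, 866 and 878 CPM, a change of -0.49 (SE 0.038, adjusted p = 4.55e-17). CCN3 therefore moved opposite to CCN1 and CCN2.

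The other large falls were spread over several functions. VGF, which encodes a secreted neuropeptide precursor, changed by -0.51, BCL2A1, an anti-apoptotic BCL2 relative, by -0.46, and RNF227, a RING finger gene, by -0.52. CA2, a carbonic anhydrase gene, changed by -0.47, GCLM, a subunit of the enzyme that starts glutathione synthesis, by -0.43, GDAP1, a mitochondrial outer membrane protein gene, by -0.43, and the linker histone gene H1-2 by -0.43. NAT1 (-0.43) and CCDC190 (-0.42) complete the 12, and their calls were the least firm. NAT1 had an adjusted p of 0.0647 without DMSO replicate 3 and of 0.0589 without siControl replicate 4. CCDC190 had one of 0.122 without DMSO replicate 4 and of 0.0776 without siControl replicate 1. After thinning to the smallest total CCDC190 was at -0.26 (adjusted p = 0.278) and NAT1 at -0.38 (adjusted p = 0.118). CCN2, CCN1, RNF227, VGF, TIMP1, BCL2A1 and H1-2 were among the 8 falls past the 1.2-fold test.

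**Figure D1:**
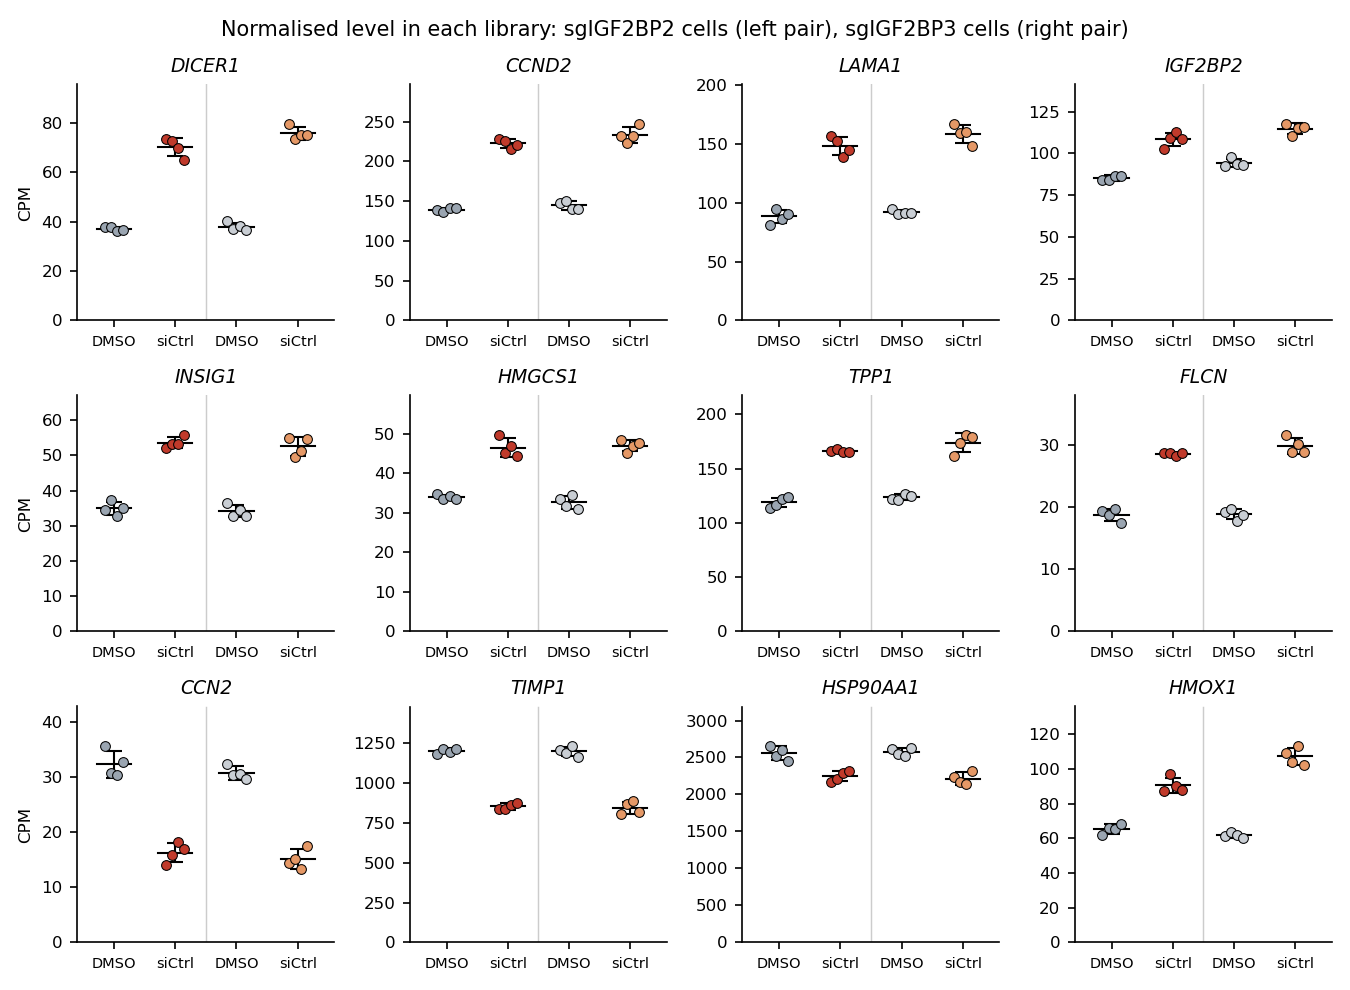
Normalised level (CPM, linear axis from 0) of 12 genes in each library of the sgIGF2BP2 line (left pair of each panel) and the sgIGF2BP3 line (right pair), with DMSO in grey and siControl in red or orange. Points are libraries, lines are means and bars are ± 1 SD (n = 4). DICER1, CCND2, LAMA1, IGF2BP2, INSIG1, HMGCS1, TPP1, FLCN and HMOX1 were higher and CCN2, TIMP1 and HSP90AA1 lower with siControl in both lines, without overlap between the treatments of a line.

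Among genes of sterol synthesis and uptake every call was a rise. Of 25 tested, 15 were called higher and none lower, against 10.2% called higher over all genes, and their median log2 fold change was 0.14 beside 0.00 (-0.0021) for all genes. INSIG1, a sterol-regulated brake on SREBP processing, went from 34.4, 37.4, 32.9 and 35 CPM to 52.1, 53.2, 53.3 and 55.8 CPM, a rise of 0.62 (SE 0.056, adjusted p = 2.34e-14). MSMO1, an enzyme of sterol demethylation, rose by 0.60 (SE 0.060), HMGCS1, which makes HMG-CoA for the mevalonate pathway, by 0.46 (SE 0.058), and DHCR7, which acts in the last steps of cholesterol synthesis, by 0.43 (SE 0.054). None of these 4 genes had overlapping groups. The squalene epoxidase gene SQLE rose by 0.27 and the regulator gene SREBF2 by 0.35. The 10 members that did not pass lay between -0.02 and 0.14.

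Fatty acid synthesis and sterol export were read from smaller lists, against 10.2% called higher and 8.16% called lower over all genes. In the fatty acid list 3 of 12 tested genes were called higher and none lower (median 0.09). They were SCD, the stearoyl-CoA desaturase gene (0.40, 340 ± 11.6 to 448 ± 11.9 CPM), SREBF1, the gene of the SREBP form that governs lipogenesis (0.28), and ACSL3, an acyl-CoA synthetase gene (0.22). Of 7 tested genes of sterol efflux and LXR control, 4 were called higher (median 0.20), namely NPC2 (0.54) and NPC1 (0.20), which move cholesterol out of lysosomes, MYLIP (0.42), a ubiquitin ligase gene, and NR1H2 (0.38), an LXR receptor gene. The groups of NPC1 overlapped, since siControl replicate 4 stood at 46.2 CPM and DMSO replicate 4 at 50.3 CPM. The sequence TCACNCCAC (N any base, both strands), a form of the sterol regulatory element bound by SREBP factors, was searched for in RefSeq promoters, from 250 bases before to 50 after the start site. It was found in 1 of 18 promoters of the sterol list that were in the table, that of SREBF2, beside 1.11% of the promoters of 9358 tested genes and 1.17% of those of genes called higher.

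Most of the lysosomal genes rose. Of 31 tested genes of lysosomal enzymes, membrane proteins and the proton pump, 22 were called higher and none lower, with a median of 0.19. Over all genes 10.2% were called higher and 8.16% lower. TPP1, a lysosomal peptidase gene, went from 114, 116, 122 and 123 CPM to 166, 169, 166 and 165 CPM, a rise of 0.48 (SE 0.039, adjusted p = 6.25e-16). HEXA, a hexosaminidase subunit gene, rose by 0.43 (SE 0.048) and CTSA, the protective protein cathepsin A gene, by 0.43 (SE 0.033). CTSA was the most abundant of these genes, at 276 ± 9.14 CPM with DMSO and 372 ± 6.75 CPM with siControl. Smaller rises were called for PSAP (0.36), GRN (0.33), CD63 (0.31), CTSD (0.19) and LAMP1 (0.19). The regulator gene TFEB itself was at -0.01 (SE 0.133) and did not pass. Under upper-quartile scaling, in the fit of these 8 libraries alone and without DMSO replicate 2, 1 member of the list was called lower.

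The E-box GTCACGTG (both strands), a sequence known to be bound by TFEB-family factors, was searched for in RefSeq promoters of GRCh38.p14, from 250 bases before to 50 after the start site. It was found in 6 of the 18 lysosomal promoters in the table (33.3%), beside 2.53% of all 27305 promoters and 4.57% of the promoters of 9358 tested genes. Among promoters of genes called higher 7.52% held it, and among those of genes called lower 3.73%. Of the 6 lysosomal genes with a match 4 were called higher and none lower, beside 22 of 31 called higher in the whole list. A match is a description of the letters only. The 200 bases before the start site of CTSA (chr20:45891135-45891334, plus strand) are shown as an example, with matches in capitals. The same stretch is shown for GAA, the acid alpha-glucosidase gene (chr17:80101381-80101580, plus strand, rise of 0.14). Both hold matches on both strands, as do the promoters of LAMP1 and MCOLN1, which are not shown. In GAA each pair of matches overlaps, because the motif and its reverse complement share letters.
CTSA: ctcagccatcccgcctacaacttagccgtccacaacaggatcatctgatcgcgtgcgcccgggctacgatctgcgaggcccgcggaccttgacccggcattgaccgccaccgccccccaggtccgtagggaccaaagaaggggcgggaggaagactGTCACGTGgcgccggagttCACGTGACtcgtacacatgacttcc
GAA: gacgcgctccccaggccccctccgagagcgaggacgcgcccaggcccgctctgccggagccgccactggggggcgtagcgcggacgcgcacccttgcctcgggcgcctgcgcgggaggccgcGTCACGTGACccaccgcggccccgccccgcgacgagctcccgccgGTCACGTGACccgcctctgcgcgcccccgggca

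Genes of the folliculin complex, a brake on TFEB-family factors that acts at the lysosome surface through RAG GTPases, were listed after the values were seen. Of 11 tested, 5 were called higher and none lower (median 0.15), except that 1 was called lower under upper-quartile scaling. Over all genes 10.2% were called higher and 8.16% lower. FLCN, the folliculin gene, stood at 19.3, 18.7, 19.6 and 17.4 CPM with DMSO and at 28.6, 28.6, 28.2 and 28.7 CPM with siControl, a rise of 0.60 (SE 0.067, adjusted p = 1.10e-10). The 4 siControl libraries were nearly equal. Its partners FNIP2 (0.62, SE 0.084) and FNIP1 (0.47, SE 0.066) rose as well, as did the lysosomal membrane gene GPR137B (0.59, SE 0.082). RRAGC, a RAG GTPase gene, rose by 0.38 (SE 0.097) with overlapping groups, since siControl replicate 4 stood at 9.87 CPM. The promoters of FNIP1, RRAGB and RRAGC held the E-box, 3 of 10 in the table, while RRAGB changed by -0.11 and did not pass. The match in FNIP1 (chr5:131797018-131797217, minus strand, 200 bases before the start site) is shown in capitals for comparison with the lysosomal promoters.
FNIP1: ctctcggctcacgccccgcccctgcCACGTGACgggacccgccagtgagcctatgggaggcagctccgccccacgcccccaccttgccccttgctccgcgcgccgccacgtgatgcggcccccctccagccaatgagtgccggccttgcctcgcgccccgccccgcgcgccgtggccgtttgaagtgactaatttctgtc

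Autophagy and endocytosis genes were read against the same shares over all genes, 10.2% called higher and 8.16% called lower, which hold for every list below. In the autophagy list 6 of 23 were called higher and 1 lower (median 0.01), led by the cargo receptor genes SQSTM1 (0.38, 162 ± 6.64 to 211 ± 8.52 CPM) and OPTN (0.30) and by WIPI1 (0.32) and ATG2A (0.28), which act in phagophore growth. Of 20 endocytic genes 4 were called higher and none lower (median 0.05). EHD1, a recycling endosome gene, rose by 0.33 and RAB7A, the late endosome GTPase gene, by 0.17, while the smaller changes of the clathrin heavy chain gene CLTC (0.10) and the adaptor gene AP2B1 (0.09) lost their calls with upper-quartile scaling (adjusted p of 0.0683 and 0.0780). The CLTC call was also lost without DMSO replicate 2 or siControl replicate 1, and the AP2B1 call without DMSO replicates 2 or 3 or siControl replicates 1 or 2.

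Small RNA machinery and antiviral signalling were read from 4 lists. DICER1 stood apart within the RNA interference list, in which 3 of 15 genes were called higher (median 0.06), since AGO2, the slicing Argonaute gene, rose by 0.13 (SE 0.034) and AGO1 by 0.12 (SE 0.041). The AGO1 call was lost with upper-quartile scaling, and without DMSO replicates 1 or 4 or siControl replicates 1 or 3 (adjusted p of up to 0.127). Interferon-response genes gave 1 call in 27 (median 0.00), below the share of 10.2% called higher over all genes. This gene was IFIT2 (1.51, SE 0.428, adjusted p = 0.00745), an interferon-induced RNA-binding protein gene at 0.237 CPM with DMSO and 0.705 CPM with siControl. It received no adjusted p from DESeq2, from the stricter filter on low counts or from the fit of these 8 libraries alone, and it overlaps the lysosomal lipase gene LIPA on the opposite strand. ISG15 (-0.12), OAS3 (0.08) and MX1 (0.08), standard interferon targets, did not pass. In the nucleic acid sensing list TBK1, a kinase gene, rose by 0.23, CGAS, the DNA sensor gene, fell by 0.19, and MAVS was at 0.12 with a call that was lost without DMSO replicate 1 (adjusted p = 0.0534) and without siControl replicate 1 (adjusted p = 0.0695). In the NF-kB list 4 of 18 genes were called higher and 1 lower, led by BIRC3 (0.54, 8.15 ± 0.876 to 12 ± 0.567 CPM), an apoptosis inhibitor gene. Of 25 listed NF-kB genes 18 were tested, without CXCL8, IL6, IL1A, IL1B, CCL2, CCL20 or TNF. Of 37 listed interferon-response genes 27 were tested, and IFIT1, OAS1, OAS2, RSAD2 and IRF9 were among those left out. The counts of both lists cover only the tested genes.

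Every call among chaperone genes was a fall. Of 17 tested heat shock protein genes 13 were called lower and none higher, against 8.16% called lower over all genes, with a median of -0.15. HSP90AA1, the inducible HSP90 gene, stood at 2658, 2519, 2606 and 2449 CPM with DMSO and at 2166, 2209, 2295 and 2317 CPM with siControl, a change of -0.19 (SE 0.035, adjusted p = 4.85e-05). The groups did not overlap. DNAJA1, an HSP40 gene, fell by 0.20 and HSPE1, the mitochondrial HSP10 gene, by 0.23. In the unfolded protein response list 1 of 25 genes was called higher and 3 lower (median 0.02), with EDEM1, which acts in degradation from the endoplasmic reticulum, at 0.40 (SE 0.045) and HERPUD1 at -0.25 (SE 0.064). In the integrated stress response list 1 of 23 was called higher, GDF15, and 4 lower (median -0.03), among them the regulator gene ATF4 (-0.22, 197 ± 6.52 to 170 ± 5.89 CPM) and PHGDH of serine synthesis (-0.23).

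Calls among genes of the translation machinery were all lower in the lists used, and small. Of 77 tested cytosolic ribosomal protein genes 44 were called lower and none higher (median -0.11), 33 did not pass, and without siControl replicate 1 or replicate 2 the count was 27 or 28. RPL41 had the largest change (-0.33, 178 ± 12.8 to 141 ± 9.39 CPM), followed by RPS28 (-0.25), RPS25 (-0.24) and RPS4X (-0.21). Of 26 ribosome biogenesis genes 13 were called lower and none higher (median -0.11), with NOP58 at -0.19 and the nucleolar genes GNL3 and NPM1 at -0.18 each. Nuclear respiratory chain genes gave 4 lower calls of 31 (median -0.06), rising to 7 with upper-quartile scaling, of which UQCRB (-0.17) kept its call in every alternative but the 1.2-fold test. Mitochondrially encoded mRNAs gave 2 lower calls of 13 (median 0.00), and 5 in the fit of these libraries alone or with no filter on low counts. Ribosomal protein genes, HSP90AA1 and NPM1 have many processed pseudogenes, so reads may have been split or dropped in counting, and their values are uncertain to that extent.

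Genes of the growth-factor response and the cell cycle were called in both directions. Of 18 immediate early genes 8 were called lower and 2 higher (median -0.16), and 8 did not pass. EGR1, a transcription factor gene induced within minutes by growth factors, stood at 444, 480, 473 and 503 CPM with DMSO and at 357, 366, 392 and 377 CPM with siControl, a change of -0.35 (SE 0.043, adjusted p = 1.92e-09). FOS changed by -0.42 and EGR3 by -0.28, while KLF6 rose by 0.39. In the SRF and YAP list 5 of 18 were called lower and 1 higher, and CCN2, CCN1 and AMOTL2 (-0.28) were the largest falls. The MAPK feedback list gave 2 higher and 1 lower of 14: the phosphatase gene DUSP6 fell by 0.29, DUSP5 rose by 0.37, and CCND1, cyclin D1, rose by 0.31 (193 ± 1.55 to 240 ± 12.2 CPM). Cyclins D1 and D2 thus both rose while EGR1 and DUSP6 fell.

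Of 39 genes of the G1/S transition and DNA replication 12 were called lower and 2 higher (median -0.10), and 6 were called lower without DMSO replicate 3, the deepest library. RRM2, the ribonucleotide reductase subunit gene, stood at 442, 414, 423 and 418 CPM with DMSO and 350, 347, 355 and 331 CPM with siControl, a change of -0.29 (SE 0.030, adjusted p = 2.85e-12). CCNE2, cyclin E2, changed by -0.27 and MCM10, a replication factor gene, by -0.25, whereas CCNE1, cyclin E1, rose by 0.26. Of 37 mitotic genes 8 were called lower and 2 higher (median -0.03), with CDC20 at -0.22 and CCNA2 at 0.20. In the growth arrest and FOXO list 6 of 18 were called higher and none lower (median 0.17), including the CDK inhibitor gene CDKN1B (0.31) and HBP1 (0.68, SE 0.199, adjusted p = 0.0102), a repressor gene at 2.01 ± 0.0955 and 3.20 ± 0.381 CPM. In the p53 list 9 of 27 were called higher and 2 lower (median 0.09), BTG2, an antiproliferative gene, among the former (0.32).

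The remaining lists held changes in both directions. In the NRF2 list 3 of 19 were called higher and 3 lower (median -0.02): HMOX1, heme oxygenase 1, rose by 0.47, whereas TXNRD1, thioredoxin reductase, fell by 0.30 and GCLM by 0.43. In the glycolysis and hypoxia list 7 of 28 were called higher and 4 lower (median 0.01), with ENO2 at 0.35 and ERO1A at 0.35. ALDOA was at -0.37 but shares exon bases with an overlapping gene on its own strand, so its value is uncertain. Metallothioneins gave 1 higher call of 7 and the Wnt and TGF-beta list 2 higher calls of 14, with no lower call in either. Reported IGF2BP target mRNAs gave 5 higher and 3 lower calls of 19 (median 0.01), the largest being CDK6 (0.51, 55.9 ± 2.42 to 80.0 ± 4.09 CPM), the kinase partner of D-type cyclins, with EIF4EBP2 at 0.25 and HMGA2 at 0.17.

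Laminins and their receptors, listed after LAMA1 was seen, gave 7 higher calls and 1 lower of 12 tested (median 0.23). LAMC1, the gamma 1 chain that pairs with LAMA1, rose by 0.37 (SE 0.037) from 140 ± 3.54 to 181 ± 4.24 CPM, and ITGB1, the common beta chain of laminin receptors, by 0.34. LAMB3, a beta chain gene, changed by -0.25. Replication-dependent histone genes, which make little poly(A) RNA, gave 1 higher and 3 lower calls of 10, and 5 lower calls with no filter on low counts.

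DICER1, CCND2, CDK6 and IGF2BP2 are also known as targets of microRNAs, so the 3′ UTRs of all tested genes were searched for matches to the seeds (bases 2 to 8) of human microRNAs. The microRNAs below, from RefSeq, are those described here, with the seed in capitals. They fall into 2 families by shared seed.
hsa-miR-29a-3p: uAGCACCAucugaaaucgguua
hsa-miR-29b-3p: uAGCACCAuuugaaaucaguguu
hsa-miR-29c-3p: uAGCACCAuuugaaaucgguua
hsa-let-7a-5p: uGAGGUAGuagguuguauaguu
hsa-let-7i-5p: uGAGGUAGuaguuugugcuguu
hsa-miR-98-5p: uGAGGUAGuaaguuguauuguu
The longest annotated 3′ UTR of each gene was used, which need not be the form made in RKO cells, and a gene was compared with the genes of similar UTR length and GC content. Both families were picked after these values were seen, and no test is given.

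Among 1781 seeds with matches in at least 300 genes, the miR-29 seed ranked 1 by the median difference between genes with and without a match, and the let-7 seed ranked 17. The differences were small, at 0.025 and 0.013 on the log2 scale after the adjustment, beside 0.0072 for the seed at the 95th percentile. In sgIGF2BP2 cells the let-7 rank depended on the adjustment. It was 12 with UTR length alone, and 2 with finer length classes, scaled means and 1899 seeds, while miR-29 stayed at 1. In sgIGF2BP3 cells, with the main adjustment, let-7 ranked 2 (difference 0.033) and miR-29 ranked 3 (0.028). Seeds ranked close to miR-29, such as those of miR-5682 and miR-498-3p, share letters with it. The seed of miR-202-3p, which ranked 3, shares letters with that of let-7. Seeds of other families ranked above let-7 as well, among them those of miR-371a-3p (5), miR-519a-3p (6), miR-19a-3p (8) and miR-25-3p (13), and let-7 was picked over them after the values were seen. Of 1886 genes with a miR-29 match 17.1% were called higher, against 8.92% of genes without. Of 1266 genes with a let-7 match 16.4% were called higher, against 9.52% without. Neither pair of shares was adjusted for UTR length or GC content. Seeds of other families had similar gaps, such as miR-296-3p (16.4% with a match, 9.65% without) and miR-17-5p (14.7% and 8.78%).

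The median log2 fold change was -0.01 with no miR-29 match, 0.04 with 1 match (1562 genes) and 0.05 with 2 or more (324 genes). For let-7 it was -0.01 with no match, 0.03 with 1 (1120 genes) and 0.08 with 2 or more (146 genes). Genes called higher had longer 3′ UTRs: the median UTR length was 1862 bases among genes called higher, 856 among genes called lower and 1343 over all, and these unadjusted medians include that difference. Across 11346 genes, which are not independent replicates, Spearman's rho between UTR length and the log2 fold change was 0.18 in sgIGF2BP2 cells and 0.039 in sgIGF2BP3 cells, and that between UTR GC content and the log2 fold change was 0.038 and 0.23. MicroRNA levels were not measured here.

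Sites in some genes that rose, picked after the values were seen, are shown as DNA of the transcript strand (GRCh38, GENCODE transcripts). The letters that pair with the seed are in capitals. All lie in annotated 3′ UTRs. CCND2 (rise 0.68) held 2 miR-29 matches, at chr12:4300901-4300925 and chr12:4302554-4302578 on the plus strand. HBP1 (0.68) held 2, the first at chr7:107201700-107201724 on the plus strand, and CDK6 (0.51) held 2, the first at chr7:92606423-92606447 on the minus strand. DICER1 (0.93) held 1 at chr14:95089088-95089112 on the minus strand, INSIG1 (0.62) 1 at chr7:155308647-155308671 on the plus strand and LAMC1 (0.37) 1 at chr1:183144239-183144263 on the plus strand. IGF2BP2 (0.34) held 1 let-7 match at chr3:185644217-185644241 on the minus strand. IGF2BP3 (-0.04) also held 1 let-7 match and GPR157 (0.81) held 2. Named genes that fell held matches as well. Among them were CA2 (-0.47), NAT1 (-0.43), FOS (-0.42) and AMOTL2 (-0.28) for miR-29, and RRM2 (-0.29), EGR3 (-0.28) and HERPUD1 (-0.25) for let-7. These further sites are not shown.
CCND2 first: aaaaaactaattttTGGTGCTgatt
CCND2 second: gcaagcagcgtttaTGGTGCTtcct
HBP1: aaattgatatcctgTGGTGCTaaag
CDK6: ctggcttgtccacaTGGTGCTctcc
DICER1: atttttcccctgttTGGTGCTatgt
INSIG1: aggaggtaggttgaTGGTGCTtaac
LAMC1: attatctgacacacTGGTGCTatta
IGF2BP2: acacacagaagaagCTACCTCaggt
Of the 12 largest rises 4 held a miR-29 match (33.3%, beside 16.6% of all genes) and 1 a let-7 match (8.33%, beside 11.2%). Of the 11 largest falls with a UTR in the search, 2 held a miR-29 match (18.2%) and none a let-7 match. These shares were not adjusted for UTR length. A list of reported let-7 targets, made after the values were seen, gave 9 higher calls and no lower call of 12 tested (median 0.24). Its members DICER1, CCND2, CDK6 and HMGA2 held no let-7 match in the UTR used here. That was the longest annotated UTR of each gene (7421 bases for HMGA2), and the UTRs of their other transcripts were not searched. The genes are thus not shown to lack let-7 sites.

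**Figure D2:**
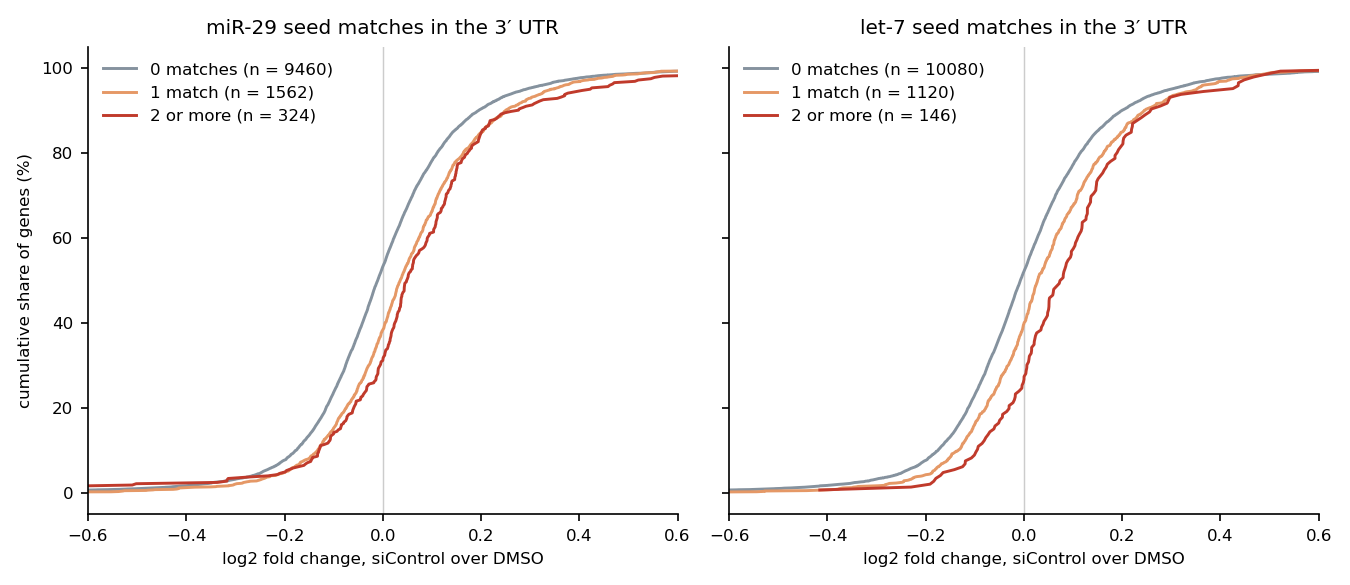
Cumulative share of genes (%) by log2 fold change (siControl over DMSO, sgIGF2BP2 cells, axis cut at ± 0.6) for genes with 0, 1 and 2 or more matches to the miR-29 seed (left) or the let-7 seed (right) in the 3′ UTR, without adjustment for UTR length. The curves of genes with matches lie to the right of those without, with medians of 0.05 and 0.08 for 2 or more matches.

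The sgIGF2BP3 line, treated in the same way with its own 8 libraries, shares no library with this comparison. There 2222 genes were called (19.4%), 1246 higher (10.9%) and 976 lower (8.54%). Of the genes called in sgIGF2BP2 cells, 1274 were called in sgIGF2BP3 cells as well, all in the same direction, which is 60.6% of the calls of the first line and 57.3% of those of the second. By sign alone, 97.3% of the calls in sgIGF2BP2 cells had the same direction in sgIGF2BP3 cells. Across all genes Pearson's r of both sets of log2 fold changes was 0.54 and Spearman's rho 0.59, as a description over genes. DICER1 rose by 0.99, CCND2 by 0.69, LAMA1 by 0.79, INSIG1 by 0.62, TPP1 by 0.49 and FLCN by 0.66 there, and CCN2 changed by -1.02 and TIMP1 by -0.51. IGF2BP2 rose by 0.28 there. Of the 27 interferon-response genes, 6 were called higher and none lower in sgIGF2BP3 cells (median 0.07), against 1 higher call in sgIGF2BP2 cells. None of the 27 was called in both lines. Of the 26 ribosome biogenesis genes 4 were called lower in sgIGF2BP3 cells (median -0.07), against 13 in sgIGF2BP2 cells. Of the 77 cytosolic ribosomal protein genes 31 were called lower there, against 44, and 27 in both lines. Of the 31 lysosomal genes 21 were called higher and 1 lower in sgIGF2BP3 cells, and of the 25 sterol genes 13 higher and none lower.

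The difference between the responses of the lines was tested gene by gene, and 1 gene was called (0.00875%), with 590 genes at an unadjusted p under 0.05. This gene was HMOX1. It stood at 61.7, 65.9, 65.6 and 68.3 CPM with DMSO and at 87.5, 97.0, 90.2 and 88.1 CPM with siControl in sgIGF2BP2 cells. In sgIGF2BP3 cells it stood at 61.2, 63.4, 62.2 and 60.0 CPM and at 109, 104, 113 and 102 CPM. The siControl levels of the lines did not overlap, and the rise in sgIGF2BP2 cells was smaller by 0.33 on the log2 scale (difference -0.33, SE 0.063, adjusted p = 0.0288). With 1 library left out in turn the difference ranged from -0.36 to -0.30 and its adjusted p from 0.00634 to 0.244. The call was lost without DMSO replicates 2, 3 or 4 or siControl replicates 1, 3 or 4 of sgIGF2BP2 cells, and without DMSO replicates 1, 3 or 4 or siControl replicates 1 or 3 of sgIGF2BP3 cells, 11 of 16 libraries. The median SE of a difference between lines was 0.091, and larger differences than that of HMOX1 could miss the threshold: that of CCNG2, a cyclin G2 gene, was 0.50 (SE 0.177, adjusted p = 0.927). A gene without a call is thus not shown to respond alike in both lines.

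**Figure D3:**
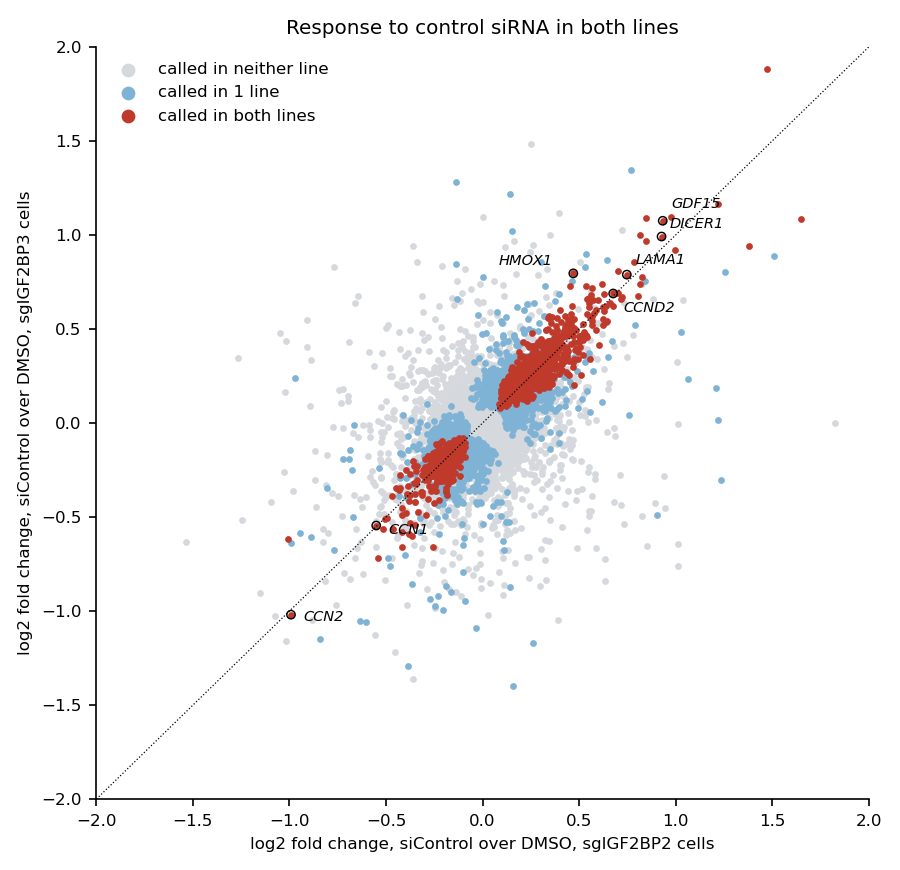
Log2 fold change of siControl over DMSO in sgIGF2BP2 cells (x axis) and in sgIGF2BP3 cells (y axis), 1 point per tested gene, with equality as the dotted line and 4 genes outside the axes. Red genes were called in both lines, blue in 1 and grey in neither. The 1274 red points lie in the quadrants of equal sign, and HMOX1 lies above the dotted line (0.47 and 0.80).

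Of 131 genes named by rule or by choice, 24 share exon bases with a tested gene on the opposite strand, among them NPC2, NPC1, CTSA, SREBF1, SQSTM1, HSP90AA1, HSPE1, CCND1, ITPR3, RPS25, RPS28, HBP1, GDAP1, CCNE2, IFIT2 and IGF2BP3, and 2 on the same strand, ALDOA and MT-ATP8. The libraries were directional, but whether the counting used strand is not given in the sources used here, so values of these genes are uncertain to that extent.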

How the data were processed

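Poly(A) RNA of RKO cells was sequenced. Per the submitters' processing notes, bcl2fastq 2.20.0.422, STAR 2.7.5c and build hg38 were used. The counting tool, annotation and strand setting are not given in the sources used here. The authors deposited whole-number counts of reads per gene, not normalized, which include both older and newly made RNA. Of 19962 listed genes, 4125 had no count in any library. Genes were kept by edgeR's filterByExpr by group, which left 11428 with 99.98% of counts. Library sizes were scaled by the trimmed mean of M-values. The test was edgeR's quasi-likelihood test (edgeR 4.0.16, R 4.3.3) on all 40 libraries in 10 groups, with Benjamini-Hochberg adjustment over all genes. The adjusted p threshold was 0.05. The SE is the size of the log2 fold change over the square root of F. The procedure was tested on simulated data.

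The 29 gene lists, the members and the tests were chosen with earlier results of these data known. A further 4 lists and 11 gene names were added after the values were seen. Named genes were the 12 largest rises and 12 largest falls (called, no overlap, mean log2 CPM of at least 2), up to 4 called genes per list, the IGF2BP genes and genes called for a difference between lines. Members of a list that are named beyond these illustrate its count and were chosen after their values were seen. Coordinates, exons and 3′ UTRs are from GENCODE (GRCh38), promoters and microRNAs from RefSeq (GRCh38.p14). A scan of all 7-base words of the 3′ UTRs was also looked at and is not reported; the search for seed matches was run in 3 versions and the search of promoters with 2 motifs, and these are reported. Replicate pairs differed by more than sampling noise (chi-square per gene 1.70 to 3.71), so none was counted as a duplicate. Alternatives were other scalings, filters and offsets, DESeq2 1.42.0, a block on replicate number, thinning and leaving out each library. Some members of the lists are counted but not reported here by name.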

Additional observations from a re-analysis of the deposited data

Results flagged for a closer look

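HMOX1 differed between the lines in its response to the control siRNA, by -0.33 on the log2 scale (sgIGF2BP2 minus sgIGF2BP3), in the test of the difference itself.

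Of 262 sets of 4 CPM values (131 named genes in each of both groups), 13 held a library far from the other 3, about the 1 in 20 that chance gives. With DMSO these were CEBPG in replicate 2 (33.8 CPM, low), NR1H2 in replicate 4 (50.6 CPM, high), OSGIN1 in replicate 2 (12.1 CPM, high), RPS25 in replicate 2 (273 CPM, low), SCD in replicate 4 (357 CPM, high) and TXNRD1 in replicate 1 (410 CPM, high). With siControl they were CCN3 in replicate 1 (4.54 CPM, low), FOS in replicate 4 (8.29 CPM, low), GPR137B in replicate 2 (23.9 CPM, high), MCM10 in replicate 4 (61.7 CPM, low), RAB7A in replicate 4 (377 CPM, low), SLC2A3 in replicate 2 (19.6 CPM, high) and TBK1 in replicate 2 (35.9 CPM, high).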

How the results depend on the processing

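The count of 2101 genes called in sgIGF2BP2 cells ranged from 1679 to 1882 with 1 library left out, and was 2107 with RLE factors, 2242 with upper-quartile factors, 2074 with DESeq2 and 1687 after thinning to the smallest total. Against a 1.2-fold change it was 85, and 125 in sgIGF2BP3 cells, where leaving out 1 library gave 1701 to 2024. The single difference between lines (HMOX1) became 3 genes with no low-count filter and 0 after thinning, with the 1.2-fold test and with an offset for GC content and length, alone or with the replicate block; leaving out 1 library gave 0 to 1. Same-numbered libraries of sgIGF2BP2 cells had correlated deviations of 0.044 to 0.092, each above those of different numbers (-0.058 to 0.018). In sgIGF2BP3 cells these ranges overlapped, at 0.0074 to 0.080 for same numbers and -0.068 to 0.023 for different numbers. Whether same-numbered libraries share an origin was not tested. The correlations were under 0.1, and same-numbered libraries were not taken as pairs. The replicate block gave 2088 and 2224 calls. Upper-quartile scaling turned the share of higher calls from 55.6% to 43.5% (40.7% in sgIGF2BP3 cells, from 56.1%). Of 130 named genes called, 104 kept their call in every alternative that tested them except the 1.2-fold test, and all 130 kept their direction. The cause of these changes was not tested, apart from the smaller samples and counts that leaving out libraries and thinning bring. Without DMSO replicate 3, the deepest library, G1/S genes called lower fell from 12 to 6, and to 7 after thinning. The median SE of a log2 fold change was 0.063, so changes of that size were mostly not detectable. The rank of the let-7 seed in sgIGF2BP2 cells was 17, 12 or 2 by version of the search, added after the data were seen.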
